A study of Arabidopsis thaliana with 7 samples.

Results

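The comparison of hot3-2 seedlings with wild type (WT) covered the 3 libraries labelled hot3-2 and the 2 libraries labelled WT, 5 of the 7 libraries of the series, and every gene in the count tables. hot3-2 is a T-DNA insertion line of HOT3 (AT1G76810), one of the genes that encode the translation initiation factor eIF5B in Arabidopsis thaliana, and WT is the Col-0 accession in which it was made. The remaining 2 libraries came from hot3-3, a second insertion line of the same gene, which served to show where hot3-2 stood apart and entered the common fit, where it shared in the estimate of the spread. All seedlings were 18 days old and had grown at 23°C, as labelled, under 16 h of light and 8 h of dark. The labels give no difference between the groups other than the HOT3 allele. The paper describes late germination and slow seedling growth in hot3 mutants, so groups of equal age may differ in developmental stage. The part of stage in the results below was not tested. Whole seedlings were used, so that fewer cells of a type and less RNA per cell cannot be told apart, and each line stands for 1 insertion. Of 27655 genes in the tables, 20795 passed the filter on low counts and were tested, and 6860 were not, of which 3402 had 0 counts in all 5 libraries.

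eIF5B is a GTPase that joins the large ribosomal subunit to the small subunit on the start codon at the end of initiation. In yeast the same factor also brings the large subunit to small subunits whose ribosomal RNA still awaits its last cut, a trial step in the making of ribosomes. Ribosome assembly as a whole needs ribosomal proteins, nucleolar proteins that modify and cut the ribosomal RNA, and nucleotides for the RNA itself. In plants many of these genes carry 2 short promoter elements, the telo-box and the site II element.

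The libraries held 14090881 to 24155594 counts in hot3-2 and 16015064 and 20628779 counts in WT, and replicates correlated at 0.984 to 0.992 across genes on the log scale. HOT3 reads were still present in hot3-2. HOT3 stood at 77.7, 97.4 and 92.5 CPM (read counts scaled to the library total) in hot3-2, 89.2 ± 10.2 (SD, n = 3), against 171 and 169 CPM in WT. The groups did not overlap, and the fitted difference was -0.93 ± 0.14 on the log2 scale (SE; adjusted p = 0.000525, edgeR's quasi-likelihood test with Benjamini-Hochberg adjustment), just short of the 2-fold limit used here for a call. Counts per gene do not show on which side of the insertion the reads lie. Of the other eIF5B genes, eIF5B3 (AT1G21160) stood at 42.7, 54.4 and 47.2 CPM against 25 and 28.9 CPM, a log2 difference of 0.83 ± 0.12. eIF5B2 (AT1G76720) stood at 4.73, 9.36 and 6.52 CPM against 7.50 and 7.80 CPM, and its groups overlapped. eIF5B4 (AT2G27700) had no counts in any of the 5 libraries. Nothing in the labels says that replicates came from separate cultures, so p-values measure the spread between these libraries, which may be technical.

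A gene was called when its adjusted p was under 0.01 and its change at least 1 on the log2 scale. By this rule 1621 genes were higher in hot3-2, 7.80% of those tested, and 807 were lower, 3.88%. Counts of called members in every list below are to be read against these shares. All 2428 called genes had hot3-2 libraries that did not overlap with WT, while 34.7% of all tested genes stood above WT and 32.1% below it without overlap. The median log2 fold change was 0.001 over all genes tested, 1.44 over the higher calls and -1.36 over the lower calls. A change of at least 4 on the log2 scale was found for 84 higher and 20 lower genes. Genes called higher took 6.50% and 6.92% of all counts in WT and 16.7% to 17.5% in hot3-2, and genes called lower took 6.17% and 6.23% in WT and 2.50% to 2.55% in hot3-2.

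**Figure D1:**
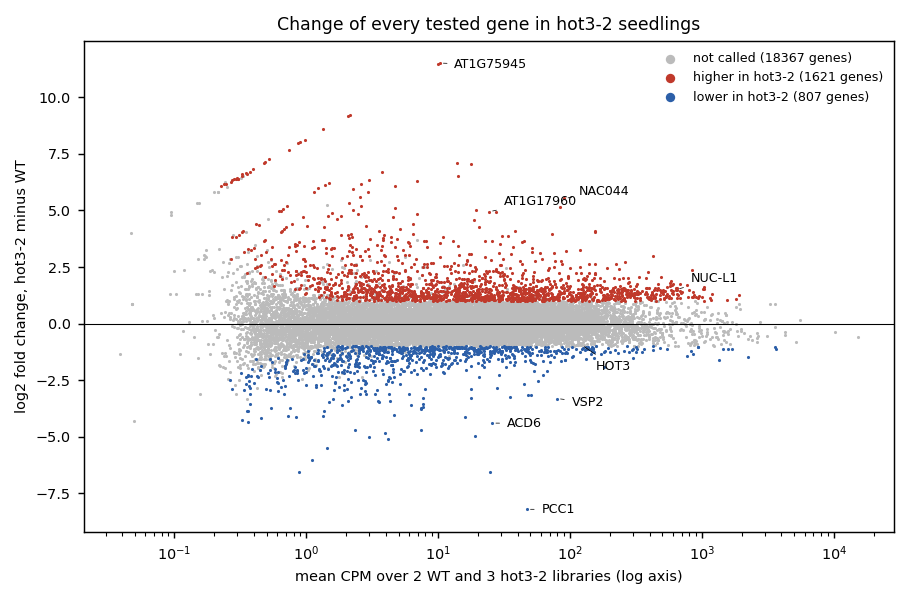
Log2 fold change of each tested gene in hot3-2 against WT (vertical axis) over its mean level in CPM (horizontal log axis), with the 1621 genes called higher and the 807 called lower coloured. Higher calls outnumber lower calls, and the changes of the largest size lie among genes of low level.

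The share of higher calls differed with the level in WT. Among genes under 1 CPM in WT 16.2% were higher and 1.74% lower, between 5 and 20 CPM 6.28% and 4.37%, between 20 and 100 CPM 4.94% and 2.72%, and from 100 CPM upwards 11.5% and 5.12%. A gene near silent in WT passed the count filter only through the mutant libraries, and had little room to be called lower. The shares under 1 CPM are thus set in part by the filter and the floor. From 100 CPM upwards the share of higher calls was also larger than between 5 and 100 CPM. Transcripts of higher genes were short, with a median exon length of 1374 bases. It was 1638 bases for lower genes and 1750 bases for all genes tested. On the nuclear chromosomes the share of higher genes ran from 7.2% on chromosome 5 to 8.72% on chromosome 2. Within 500 kb of HOT3, 7.83% of 217 tested genes were higher and 5.99% lower. Of 77 tested plastid genes none was higher and 2 were lower, and of 22 tested mitochondrial genes none was higher and 3 were lower. Reads of these organelle genes come through polyA selection, which plant organelle RNAs mostly escape.

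The 12 largest rises held several genes that were close to silent in WT. They were taken among called genes with a mean of at least 5 CPM and no overlap between the groups. AT1G75945 (chromosome 1, 28515245 to 28515916, minus strand), an uncharacterized gene 315.0 kb from HOT3, had 0 counts in both WT libraries and 17.5, 16.9 and 17.1 CPM in hot3-2. AT1G30170, a DUF295 protein gene, likewise had 0 counts in WT and 14.9, 17.1 and 17.85 CPM in hot3-2. Set against a floor of 3 counts in each WT library, the mean levels of these genes gave lower bounds on the rise, at least 104-fold for AT1G75945 and at least 101-fold for AT1G30170. No read of either gene was counted in WT.

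AT2G18190, a P-loop nucleoside triphosphate hydrolase gene, stood at 21.7, 23.3 and 23.8 CPM against 0.246 and 0.0963 CPM in WT, a log2 difference of 7.09 ± 0.22. AT4G05380, of the same annotated superfamily, stood at 8.47, 13.6 and 12 CPM against 0.185 and 0.0963 CPM. These AAA-type genes have no settled role, and in each the lowest hot3-2 library was far above the highest WT library. AT2G05915 (29.7, 28.1 and 30.9 CPM against 0.308 and 0.145 CPM) and AT1G64795 (23.3, 23.58 and 22.8 CPM against 0.308 and 0.193 CPM) lie wholly inside an opposite-strand gene, over 450 and 270 bases. How the counting used strand is not given in the sources used here, so reads of each may belong to the gene opposite.

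NAC044 (AT3G01600), a NAC transcription factor known for its part in the response to DNA damage, stood at 147, 154 and 146 CPM against 3.26 and 3.18 CPM in WT. Its rise of 5.53 ± 0.10 had, with that of AT5G13210, the smallest adjusted p of all genes tested, 9.24e-09. AT5G13210, annotated only as a conserved protein with a vWA domain, stood at 139, 134 and 138 CPM against 3.81 and 3.85 CPM. Both were low but detected in WT, and their hot3-2 libraries lay close to each other. The remaining large rises were those of AT2G04070, a MATE efflux transporter gene (32.0, 29.6 and 33.1 CPM against 1.48 and 0.578 CPM), AT1G17960, a threonyl-tRNA synthetase gene (34.4, 44.8 and 39.7 CPM against 1.72 and 0.915 CPM), AT3G01345, uncharacterized (44.9, 44.7 and 43.7 CPM against 1.91 and 1.06 CPM), and AT3G09680, a ribosomal protein gene of the S12/S23 family (11.1, 11.7 and 10.8 CPM against 0.492 and 0.289 CPM).

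The 12 largest falls, chosen by the same rule, held several genes known from defence and wounding. PCC1 (AT3G22231), a small membrane protein gene that responds to pathogens and the clock, fell from 135 and 99.5 CPM in WT to 0.301, 0.429 and 0.470 CPM in hot3-2, by 8.20 ± 0.28 on the log2 scale (adjusted p = 3.52e-07). AT3G22235, which encodes a protein of the same cysteine-rich kind and lies close by on chromosome 3, fell from 67.0 and 53.4 CPM to 0.688, 1.0 and 0.313 CPM. ACD6 (AT4G14400), an ankyrin-repeat membrane protein that promotes salicylic acid signalling, fell from 65.9 and 54.1 CPM to 3.01, 3.21 and 2.35 CPM. The thionin gene AT1G66100, for a small antimicrobial peptide, fell from 42.6 and 48.5 CPM to 1.46, 1.71 and 1.30 CPM. Every hot3-2 library was far below both WT libraries for each of these genes.

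VSP2 (AT5G24770) and VSP1 (AT5G24780), neighbouring acid phosphatase genes used as reporters of jasmonate, fell from 143 and 202 CPM to 17.2, 16.8 and 18.21 CPM and from 33.1 and 40.4 CPM to 2.93, 1.36 and 1.77 CPM. BAM6 (AT2G32290), a beta-amylase gene, fell from 20.5 and 13.6 CPM to 1.46, 1.57 and 1.36 CPM, and PGL5 (AT5G24420), for a 6-phosphogluconolactonase of the pentose phosphate pathway, from 17.2 and 16.1 CPM to 1.29, 1.21 and 1.25 CPM. BAM6 overlaps the gene opposite by 693 bases. The other large falls were those of AT1G14250, a GDA1/CD39 nucleoside phosphatase gene (-4.69), AT3G55710, a UDP-glycosyltransferase gene (-3.79), AT3G16670, a pollen Ole e 1 family gene (-3.67), and AT3G23480, a cyclopropane-fatty-acyl-phospholipid synthase gene that overlaps its opposite neighbour by 327 bases (-3.61). That every hot3-2 library was below both WT libraries was a condition for all 12 and is no finding.

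**Figure D2:**
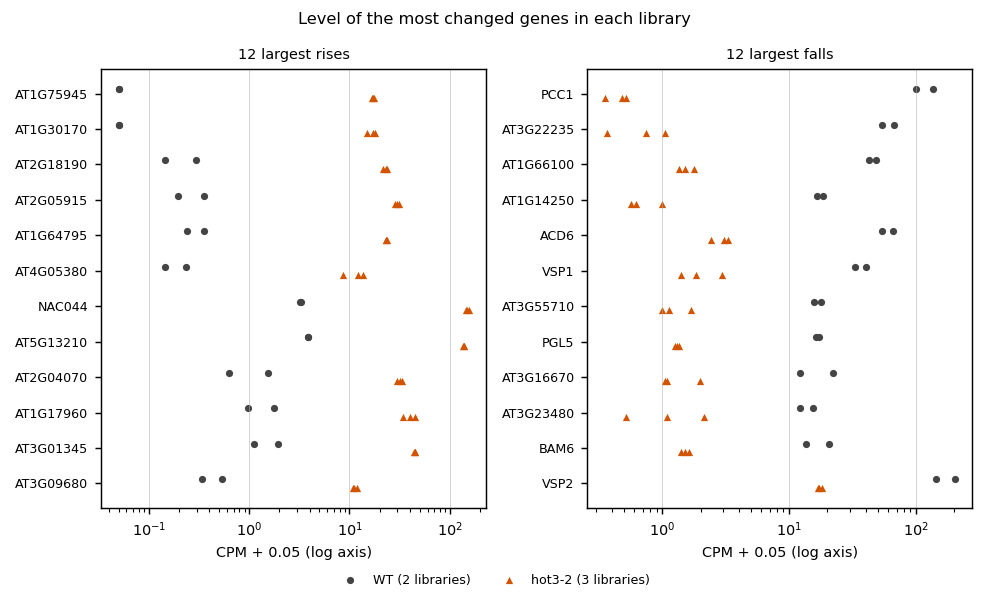
CPM of the 12 largest rises and the 12 largest falls in each WT and hot3-2 library, on a log axis after adding 0.05 CPM so that libraries at 0 can be drawn. The libraries of a group lie close together for most genes. The groups are apart for each gene by the rule that chose the genes.

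Most ribosomal protein genes rose. Of 302 tested genes whose annotated product is a ribosomal protein, 180 (59.6%) were higher in hot3-2 and none was lower, with a median log2 fold change of 1.13 against 0.001 for all genes tested, and 263 had a positive change. The list was made from words in the product and holds some genes for organellar ribosomes. HLL (AT1G17560), for a mitochondrial L14 protein needed in ovules, rose from 6.77 and 6.94 CPM to 29.0, 29.4 and 29.9 CPM. AT3G09630, for L4 of the cytosolic large subunit, rose from 259 and 235 CPM to 737, 753 and 754 CPM, and AT3G56340, for S26 of the small subunit, from 116 and 115 CPM to 349, 324 and 347 CPM. AT2G44860, an L24e family gene, rose from 45.3 and 43.6 CPM to 139, 130 and 134 CPM. Genes of both subunits were thus among the rises. Many ribosomal proteins are encoded by near-identical copies, and how reads shared between copies were split bears on single genes.

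Of 59 tested genes for nucleolar proteins and ribosome assembly factors 21 were higher (35.6%), 37 were not called and 1 was lower, with a median of 0.77. NUC-L1 (AT1G48920), the main nucleolin that coats ribosomal DNA and precursor RNA, rose from 315 and 292 CPM to 843, 881 and 854 CPM. NUC-L2 (AT3G18610), its minor copy, rose from 1.97 and 1.45 CPM to 31.3, 36.1 and 30.5 CPM, by 4.27 ± 0.15. FIB1 (AT5G52470), the methyltransferase of box C/D ribonucleoproteins, rose from 147 and 135 CPM to 425, 401 and 409 CPM, and NOP10 (AT2G20490), a subunit of the box H/ACA ribonucleoproteins that make pseudouridine, from 25.3 and 22.5 CPM to 98.4, 93.2 and 91.1 CPM. Both classes of RNA-modifying particle were thus represented among the rises. The gene called lower was AT2G40020, for a protein related to a nucleolar histone methyltransferase (-1.07 ± 0.17), and its call was lost without WT replicate 1 (-0.89) or hot3-2 replicate 2 (-0.97).

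Among 62 tested translation initiation factor genes 9 were higher and 1 lower (AT2G36885, -1.05, and -0.84 without WT replicate 1), with a median of 0.40. The rises were led by eIF6, which keeps the large subunit from joining too early and acts in its assembly. eIF6A (AT3G55620) rose from 68.5 and 66.1 CPM to 229.9, 216 and 221 CPM, and eIF6B (AT2G39820), a second copy, was at 0.0615 and 0 CPM in WT and at 1.63, 2.29 and 1.77 CPM in hot3-2. EIF2 BETA (AT5G20920), a subunit of the factor that carries the initiator tRNA, rose from 69.1 and 63.5 CPM to 207, 182 and 199 CPM. AT1G36730, an eIF2/eIF5 family gene, rose by 1.5 ± 0.08, and TIF3C2 (AT3G22860), a minor copy of a subunit of eIF3, rose from 0.246 and 0.289 CPM to 6.45, 7.64 and 7.98 CPM. The other 52 of the 62 were not called. The share called higher was 14.5%, against 7.80% of all genes tested.

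Aminoacyl-tRNA synthetases, which load tRNAs, had 6 of 51 tested genes higher, none lower and a median of 0.14. Beside AT1G17960 these included AT2G33840 for tyrosine (1.45 ± 0.08), ATKRS-1 (AT3G11710) for lysine (1.18 ± 0.08) and AT5G27470 for serine (1.16 ± 0.07). RNA helicases had 6 of 66 higher, 1 lower (AT5G14610, -1.01, not called under the replicate block or without some single libraries, at -0.99 to -0.95) and a median of 0.30. AT1G71280, a DEAD-box helicase gene close to silent in WT, rose from 0.185 and 0.0482 CPM to 6.93, 9.07 and 7.15 CPM. STRS2 (AT5G08620), a nuclear helicase first known from stress responses, and PMH1 (AT3G22310), a mitochondrial helicase of intron splicing, rose by 1.24 ± 0.09 and 1.23 ± 0.09. The shares called higher were 11.8% of the synthetases and 9.09% of the helicases, against 7.80% of all genes.

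The promoters of the genes that rose differed in short elements from those of the other genes. A promoter was taken as the 250 bases before and the 50 bases after the annotated gene start in the RefSeq annotation of assembly TAIR10.1, and motifs were sought on both strands. The telo-box (AAACCCTA) was in 16.5% of the promoters of higher genes, in 2.87% of those of lower genes, in 4.78% of those of genes not called and in 5.63% of those of all genes tested. The site II element (TGGGCC or TGGGCT) was in 29.9%, 14.7%, 24.9% and 24.9% of the same groups, and both together in 9.93%, 0.375%, 1.82% and 2.40%. Without the ribosomal protein genes 12.5% of higher genes still held a telo-box and 6.04% held both elements, while the site II element fell to 23.7%. The telo-box lay near the start of transcription, and with only the 250 bases before the start its share was 6.97% in higher genes and 3.43% in genes not called.

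Read the other way, 161 of 497 tested genes with both elements were higher (32.4%), against 16.0% of those with a telo-box alone, 6.95% of those with a site II element alone and 6.92% of those with neither. Among ribosomal protein genes the shares called higher were 83.1% with both elements, 63.6% with a telo-box alone, 62.7% with a site II element alone and 28.4% with neither. All 8 nucleolar genes with both elements were higher, against 4 of the 24 with neither. Without the ribosomal protein genes the shares called higher were 21.3% with both elements and 14.4% with a telo-box alone. They were 5.61% with a site II element alone and 6.8% with neither. A match of letters is not a binding site, and these shares were not tested. The G-box (CACGTG) was in 6.42% of higher and 10.9% of lower promoters, and the evening element (AAAATATCT) in 3.02% and 2.50%.

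The promoters of 3 genes that rose show how the elements lie. NOP56 (AT1G56110) and AT5G27120 both encode NOP56-like core proteins of box C/D ribonucleoproteins and rose by 1.96 ± 0.10 and 2.02 ± 0.10, and AT3G09680 is the minor S12/S23 gene described above. Each line gives the 200 bases before the gene start, 5′ to 3′ on the strand of the gene, from chr1:20986953-20987152 (minus), chr5:9540661-9540860 (plus) and chr3:2970372-2970571 (minus) of TAIR10.1, with telo-boxes and site II elements of either strand in capitals.
NOP56: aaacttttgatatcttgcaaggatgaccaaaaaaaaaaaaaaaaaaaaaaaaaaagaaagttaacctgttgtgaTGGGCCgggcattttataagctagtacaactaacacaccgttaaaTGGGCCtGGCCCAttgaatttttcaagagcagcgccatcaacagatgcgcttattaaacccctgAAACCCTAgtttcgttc
AT5G27120: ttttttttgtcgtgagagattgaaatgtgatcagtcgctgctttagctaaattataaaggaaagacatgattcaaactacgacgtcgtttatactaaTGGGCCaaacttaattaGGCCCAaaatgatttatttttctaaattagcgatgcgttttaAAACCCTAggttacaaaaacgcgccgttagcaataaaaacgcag
AT3G09680: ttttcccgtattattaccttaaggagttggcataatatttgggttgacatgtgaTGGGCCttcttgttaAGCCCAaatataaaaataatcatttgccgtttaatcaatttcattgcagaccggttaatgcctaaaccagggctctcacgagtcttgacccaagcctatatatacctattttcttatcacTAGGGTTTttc
In each the telo-box was downstream of the site II elements. In AT3G09680 it was on the opposite strand, 3 bases before the start.

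**Figure D3:**
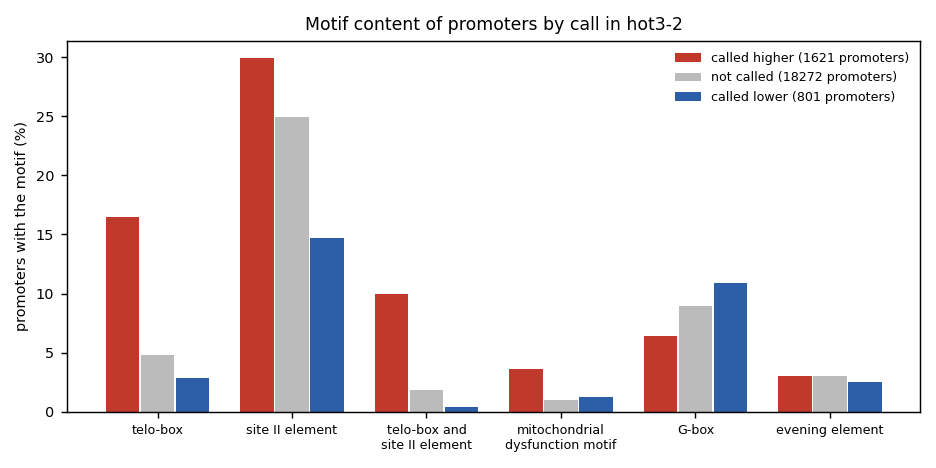
Percent of promoters that hold each motif (bars from 0) among genes called higher, genes not called and genes called lower. The telo-box stands at 16.5%, 4.78% and 2.87% in these groups, and the G-box at 6.42%, 8.96% and 10.9%.

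Of 18 tested genes for mitochondrial protein import and folding, 9 were higher and none lower, all 18 changes were positive, and the median was 1.03. mtHsc70-1 (AT4G37910), the matrix chaperone that pulls precursors in, rose from 117 and 102 CPM to 314, 304 and 303 CPM. PHB3 (AT5G40770), a prohibitin of the inner membrane, rose from 77.4 and 64.0 CPM to 218, 194 and 209 CPM, TIM8 (AT5G50810), a small chaperone between the membranes, from 21.0 and 18.1 CPM to 63.7, 55.3 and 61.4 CPM, and the receptor gene TOM20-2 (AT1G27390) from 28.9 and 28.9 CPM to 62.3, 60.0 and 59.3 CPM. The rises spanned the outer membrane, the inner membrane and the matrix.

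The mitochondrial retrograde response, by which disturbed mitochondria change nuclear transcription, had 7 of 14 tested genes higher and none lower, with all 14 positive and a median of 1.0. UPOX (AT2G21640), a marker gene of oxidative stress, rose from 4.06 and 4.09 CPM to 47.1, 45.6 and 46.0 CPM. TIM17-1 (AT1G20350), an import channel copy induced by stress, rose from 0.984 and 1.49 CPM to 32.1, 25.8 and 32.2 CPM, and SOT12 (AT2G03760), a sulfotransferase gene, from 49.5 and 41.8 CPM to 150.01, 106 and 124 CPM. AOX1A (AT3G22370), the alternative oxidase and best known member of this response, stood at 194, 184 and 188 CPM against 106 and 75.1 CPM. Its change of 1.06 ± 0.13 was 0.80 without WT replicate 2, under the limit for a call. BCS1, HSP23.6-MITO and AT12CYS-2 completed the 7, and each lost its call without some single library.

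The mitochondrial dysfunction motif, CTTG followed after any 5 bases by CAAG or CACG, to which NAC factors of this response bind, was in 3.64% of promoters of higher genes, 0.991% of those of genes not called and 1.25% of those of lower genes. Of 250 tested genes with the motif 59 were higher and 10 lower. Of all 20795 genes tested 1621 were higher (7.80%) and 807 lower (3.88%). The share called higher was thus larger among genes with the motif than among all genes, a difference that was not tested. The motif was in 10 of the 14 promoters of the retrograde list. That list is known in part by this motif, so that its presence there is no finding. The copies printed here all end in CAAG and so match on both strands. Shown for 3 large rises of different function, each line gives the 250 bases before the start, from chr2:9254128-9254377 (plus), chr1:6183807-6184056 (minus) and chr3:6407947-6408196 (minus) of TAIR10.1, with the motif in capitals.
UPOX: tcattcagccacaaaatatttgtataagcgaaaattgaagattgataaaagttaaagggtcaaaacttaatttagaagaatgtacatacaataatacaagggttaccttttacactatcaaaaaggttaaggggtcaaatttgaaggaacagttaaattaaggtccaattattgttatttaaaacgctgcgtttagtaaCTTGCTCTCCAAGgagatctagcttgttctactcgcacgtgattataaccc
AT1G17960: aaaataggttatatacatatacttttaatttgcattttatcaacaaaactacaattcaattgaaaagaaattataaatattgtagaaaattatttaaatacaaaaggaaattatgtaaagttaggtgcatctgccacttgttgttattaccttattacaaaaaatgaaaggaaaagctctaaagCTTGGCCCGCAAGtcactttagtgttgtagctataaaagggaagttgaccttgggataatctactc
NUC-L2: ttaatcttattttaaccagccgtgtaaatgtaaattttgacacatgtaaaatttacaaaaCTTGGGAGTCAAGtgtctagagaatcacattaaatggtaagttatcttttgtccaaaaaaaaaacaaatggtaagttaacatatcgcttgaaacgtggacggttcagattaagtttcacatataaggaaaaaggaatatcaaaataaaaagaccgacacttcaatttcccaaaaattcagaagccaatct
UPOX belongs to the retrograde list, whereas AT1G17960 loads a tRNA and NUC-L2 is nucleolar.

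De novo nucleotide synthesis, which feeds RNA and DNA, had 8 of 16 tested genes higher, none lower, 15 positive and a median of 0.96. ASE1 (AT2G16570), a copy of the amidotransferase that commits phosphoribosyl pyrophosphate to purines, rose from 3.20 and 2.26 CPM to 22.7, 22.01 and 21.7 CPM. CARA (AT3G27740), the small subunit of carbamoyl phosphate synthetase at the entry to pyrimidines and arginine, rose from 69.4 and 61.5 CPM to 213, 212 and 205 CPM, and ATIC (AT2G35040), which closes the purine ring, from 71.7 and 71.0 CPM to 161, 167 and 161 CPM. Both the purine and the pyrimidine branch were thus among the rises. ADSS (AT3G57610), which leads to AMP, rose by 1.03 ± 0.07, and its change was 0.93 without WT replicate 2.

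Protein folding in the endoplasmic reticulum had 2 of 16 tested genes higher (12.5%, against 7.80% of all genes tested), none lower and a median of -0.07. The 2 were transcription factors of the unfolded protein response. NAC103 (AT5G64060) rose from 0.923 and 0.674 CPM to 8.91, 9.79 and 9.50 CPM and BZIP60 (AT1G42990) from 32.5 and 30.8 CPM to 75.6, 73.5 and 72.0 CPM. The chaperone genes on the list were not called, among them CRT1b (AT1G09210, calreticulin), at 129, 126 and 127 CPM against 107 and 90.9 CPM. None of 35 tested proteasome subunit genes was called, although 32 were positive and the median was 0.37. Of these PBD1 (AT3G22630) had the smallest p, with a log2 difference of 0.94 ± 0.08. All 258 tested pentatricopeptide repeat genes, most of which act on organelle RNA, had a median of 0.01, with 5 higher and 5 lower.

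Several genes of the DNA damage response rose. Of 12 tested damage genes 6 were higher and none lower, with a median of 1.46 and 11 positive. GMI1 (AT5G24280), induced by gamma irradiation and needed in recombination, rose from 5.91 and 5.15 CPM to 52.5, 62.4 and 57.9 CPM. PARP2 (AT4G02390), a poly(ADP-ribose) polymerase of DNA repair, rose from 7.63 and 5.97 CPM to 30.2, 37.6 and 32.9 CPM, and CYCB1-1 (AT4G37490), a cyclin induced by strand breaks as well as at mitosis, from 7.32 and 4.91 CPM to 19.7, 21.7 and 21.0 CPM. TSO2 (AT3G27060), the small subunit of ribonucleotide reductase, rose by 1.5 ± 0.15, BRCA1 (AT4G21070) by 1.42 ± 0.14 and SMR7 (AT3G27630), an inhibitor of cyclin-dependent kinases, by 2.58 ± 0.39. SMR5 (AT1G07500) was at 1.55, 0.429 and 1.67 CPM against 0.246 and 0.385 CPM and was not called, although DESeq2, the fit without a count filter and the fit without hot3-2 replicate 2 called it higher.

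DNA replication genes had 1 of 14 higher, CDC6 (AT2G29680), of the origin licensing complex, with a change of 1.05 that was 0.97 without WT replicate 2, and a median of 0.42. None of 15 tested mitosis genes was called, and their median was 0.03. With 7.80% higher and 3.88% lower over all genes tested, a list of this size leaves few calls to be seen. CYCB1-3 (AT3G11520), a cyclin of the same family as CYCB1-1, was at 6.37, 6.07 and 6.001 CPM against 3.94 and 3.32 CPM, a log2 difference of 0.77 ± 0.15. Of 42 tested histone genes 1 was higher, AT5G50930 (1.0), and the median was 0.07. HIS1-3 (AT2G18050), a linker histone of drought, was at 53.3, 70.2 and 61.3 CPM against 109 and 114 CPM, short of the limit.

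**Figure D4:**
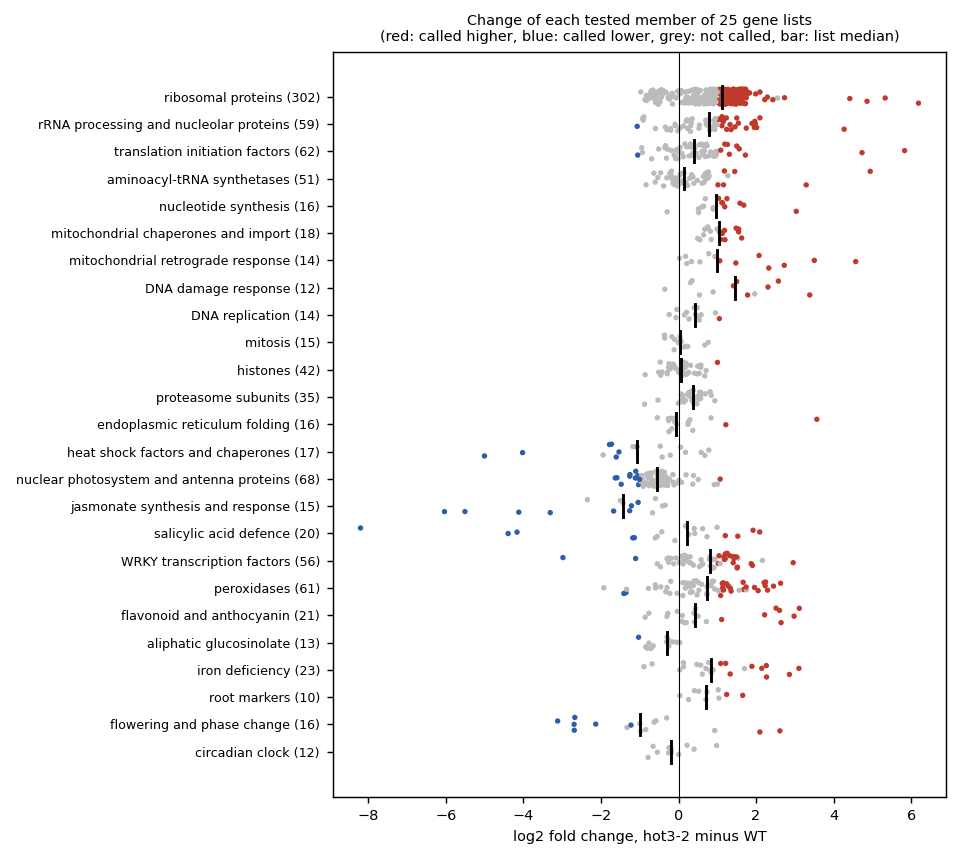
Log2 fold change in hot3-2 against WT of the tested members of 25 gene lists (points, red called higher, blue called lower, grey not called), with the median of each list and a line at 0. The points of the ribosomal protein, mitochondrial import and nucleotide synthesis lists lie mostly right of 0, at medians of 1.13, 1.03 and 0.96, and those of the jasmonate and heat shock lists mostly left of it, at -1.43 and -1.08.

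Nuclear genes for photosystem and antenna proteins stood lower as a group. Of 68 tested genes 10 were lower and 1 higher, 59 had a negative change and the median was -0.57. PSAG (AT1G55670), a subunit of photosystem I, stood at 1109, 1178 and 1189.9 CPM against 2371 and 2612 CPM in WT, and it overlaps the gene opposite by 479 bases. PSBR (AT1G79040), of photosystem II, stood at 2633, 2388 and 2539 CPM against 5159.6 and 5139.9 CPM, a change of -1.03 that was -0.99 without hot3-2 replicate 2. PSAN (AT5G64040) and PSAE-2 (AT2G20260), of photosystem I, changed by -0.91 ± 0.06 and -0.95 ± 0.07, short of the limit. The antenna gene called higher was CAB2 (AT1G29920), whose WT libraries were at 664 and 1507 CPM and whose change of 1.07 was 0.60 without WT replicate 1. The call of CAB2 was also lost without any 1 hot3-2 library, and it belongs to a family of near-identical copies. The summed level of the list was 63400 to 64200 CPM in hot3-2 and 85600 and 103000 CPM in WT.

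Some heat shock factors and chaperones were lower in hot3-2. Of 17 tested genes 7 were lower and none higher, with a median of -1.08. Across the alternatives this median ran from -1.17 to -0.47. HSFA2 (AT2G26150), the heat-induced activator of this response, fell from 8.18 and 5.97 CPM to 0.172, 0.286 and 0.209 CPM, and the small chaperone gene HSP17.8 (AT1G07400) from 13.1 and 8.00 CPM to 0.645, 0.714 and 0.574 CPM. HSP70 (AT3G12580) fell from 68.2 and 55.4 CPM to 21.4, 22.6 and 19.9 CPM, HSP90.1 (AT5G52640) from 41.1 and 31.6 CPM to 11.4, 12.3 and 12.1 CPM and HSP101 (AT1G74310), the disaggregase behind acquired thermotolerance, by 1.78 ± 0.16. The other 10 were not called, and 5 of the 17 changes were positive.

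Carbon and nitrogen genes changed unevenly. Of 11 tested carbon starvation genes 4 were higher and none lower, with a median of 0.81. bZIP1 (AT5G49450), a transcription factor of low sugar, rose from 18.1 and 32.7 CPM to 141, 96.8 and 122 CPM, DIN2 (AT3G60140), a glycosyl hydrolase gene induced by dark, from 0.431 and 1.01 CPM to 7.83, 4.79 and 5.43 CPM, and the trehalose-6-phosphate synthase genes TPS8 (AT1G70290) and TPS11 (AT2G18700) by 1.57 ± 0.24 and 1.58 ± 0.26. In all 4 the second WT library was above the first. Of 12 nitrate assimilation genes 2 were higher and 1 lower, with a median of -0.48. NRT2:1 (AT1G08090), the high-affinity nitrate transporter of roots, rose from 0.123 and 0.0482 CPM to 6.07, 3.43 and 4.91 CPM. GS2 (AT5G35630) and GLU1 (AT5G04140), which assimilate ammonium in plastids, were at -0.82 ± 0.08 and -0.75 ± 0.09 without a call. ASN1 (AT3G47340), for asparagine synthetase, was called lower, but its WT libraries were at 114 and 537 CPM. Its change of -1.91 was -0.43 without WT replicate 2. The call was also lost by DESeq2, with the replicate block and without any 1 hot3-2 library.

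Jasmonate genes stood lower in hot3-2. Of 15 tested genes of jasmonate synthesis and response 8 were lower and none higher, all 15 changes were negative, and the median was -1.43. Beside VSP1 and VSP2 these included CORI3 (AT4G23600), a coronatine-induced cystine lyase, at 17.55, 21.4 and 21.4 CPM against 43.7 and 49.2 CPM, and PDF1.2 (AT5G44420), the defensin reporter of jasmonate with ethylene, at 0.129, 0 and 0.0522 CPM against 3.63 and 3.32 CPM. The response gene TAT3 (AT2G24850) was at 0.0860, 0 and 0 CPM against 3.01 and 2.41 CPM. Of the synthesis enzymes, LOX2 (AT3G45140) changed by -1.26 ± 0.14, OPR3 (AT2G06050) by -1.67 ± 0.23 and AOC2 (AT3G25770) by -1.04 ± 0.10, and AOC2 was at -0.94 without WT replicate 2. Both the making of the hormone and its responses were on the falling side.

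The salicylic acid list split. Of 20 tested genes 4 were higher and 5 lower, with a median of 0.22. PCC1 and ACD6 led the falls, followed by NIMIN1 (AT1G02450), a partner of the salicylic acid receptor, at 0.0860, 0.0714 and 0 CPM against 1.05 and 1.06 CPM, a call that was lost without WT replicate 2. BGL2 (AT3G57260), the glucanase known as PR2, changed by -1.18 and was at -0.81 without WT replicate 1. Its call was also lost with the replicate block and without hot3-2 replicate 1 or 3. PBS3 (AT5G13320), a synthesis enzyme, changed by -1.14, and its call was lost without any 1 WT or hot3-2 library. Of the higher genes SAG101 (AT5G14930), a lipase-like partner of EDS1, rose from 9.84 and 9.83 CPM to 37.8, 44.9 and 43.4 CPM, PR5 (AT1G75040), a thaumatin-like defence protein, from 4.55 and 2.26 CPM to 13.9, 12 and 11.9 CPM and GRXS13 (AT1G03850), a glutaredoxin gene, by 1.53 ± 0.24. CBP60G (AT5G26920), a regulator of synthesis, changed by 1.21 and was at 0.89 without WT replicate 2. Its call was also lost without any 1 hot3-2 library.

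Transcription factor families of stress are read here against the 7.80% of all tested genes that were higher and the 3.88% that were lower. WRKY genes had 17 of 56 tested genes higher (30.4%), 2 lower and a median of 0.80. WRKY25 (AT2G30250) rose from 32.7 and 31.9 CPM to 86.6, 85.4 and 88.4 CPM, and WRKY6 (AT1G62300), of senescence and defence, from 24.1 and 18.7 CPM to 66.0, 53.6 and 62.5 CPM. WRKY33 (AT2G38470), which controls camalexin and resistance to necrotrophic fungi, rose from 59.1 and 51.3 CPM to 159.99, 249.98 and 211 CPM. The 2 lower were WRKY54 (AT2G40750), at 0.860, 0.572 and 0.731 CPM against 7.57 and 4.29 CPM, and WRKY49 (AT5G43290), at -1.11, which was -0.75 without WT replicate 1. The call of WRKY49 was also lost without hot3-2 replicate 1 or 2. WRKY54 acts in the salicylic acid pathway.

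NAC genes had 16 of 69 higher (23.2%), 4 lower (5.8%) and a median of 0.22. After NAC044 the smallest p-values were those of NAC047, NAC103, described above, and ANAC087. NAC047 (AT3G04070), a hypoxia and senescence factor, stood at 29.1, 23.4 and 25.8 CPM against 4.74 and 4.09 CPM, and ANAC087 (AT5G18270), of programmed cell death in the root cap, at 31.6, 39.5 and 36.8 CPM against 2.83 and 2.94 CPM. Ethylene response and DREB factors had 11 of 83 higher (13.3%), 5 lower (6.02%) and a median of 0.42. ESE3 (AT5G25190) rose by 2.33 ± 0.16 and EBP (AT3G16770), of hypoxia and ethylene, fell by 1.03 ± 0.07. NB-LRR resistance genes had 12 of 130 higher and 4 lower with a median of -0.04, close to the shares over all genes, and AT1G63750, of the TIR class, rose from 10.03 and 10.7 CPM to 43.8, 47.7 and 45.9 CPM. Cysteine-rich receptor-like kinases had 4 of 31 higher and 3 lower, with CRK10 (AT4G23180) at 115, 129.7 and 123 CPM against 40.2 and 42.2 CPM.

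Enzyme families of detoxification and specialised metabolism are read against the 7.80% higher and 3.88% lower over all genes tested. Glutathione S-transferases had 9 of 50 tested genes higher (18.0%) and 2 lower (4.0%). GSTU9 (AT5G62480) rose from 3.01 and 3.37 CPM to 48.5, 34.9 and 38.2 CPM and GSTU22 (AT1G78340) from 3.81 and 2.55 CPM to 31.7, 22.8 and 24.4 CPM. Cytochromes P450 had 12 of 173 higher (6.94%) and 16 lower (9.25%), and UDP-glycosyltransferases 10 of 115 higher (8.7%) and 13 lower (11.3%). In both families the higher share was near that over all genes and the lower share was above it, which was not tested. CYP71B29 (AT1G13100) and CYP71B7 (AT1G13110), which bear neighbouring locus numbers, moved apart, the former from 9.90 and 8.91 CPM to 0.215, 0.357 and 0.417 CPM and the latter from 145 and 126 CPM to 347, 298 and 314 CPM. UGT84A3 (AT4G15490), which adds glucose to hydroxycinnamates, fell from 95.04 and 71.0 CPM to 28.8, 25.3 and 27.2 CPM.

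Defensin and thionin genes were mostly unexpressed. Of the 172 such genes, 25 were tested, of which 5 were higher and 8 lower. THI2.2 (AT5G36910) fell from 14.5 and 11.2 CPM to 1.72, 1.14 and 1.46 CPM, while AT3G59930, a defensin-like gene, rose from 2.95 and 3.52 CPM to 39.2, 15.5 and 27.5 CPM. Indole glucosinolate and camalexin genes had 2 of 10 higher and 2 lower. MYB51 (AT1G18570), an activator of indole glucosinolates in shoots, rose from 8.98 and 10.2 CPM to 33.5, 35.4 and 34.1 CPM, whereas MYB34 (AT5G60890), its counterpart in roots, fell from 32.5 and 28.4 CPM to 12.7, 13.0 and 10.9 CPM. CYP81F2 (AT5G57220), which modifies the indole ring for defence, rose by 2.61 ± 0.20 and CYP71A13 (AT2G30770), of camalexin, fell by 2.27 ± 0.26 and overlaps its opposite neighbour by 572 bases. Aliphatic glucosinolate genes had 1 of 13 lower and a median of -0.31, with 12 negative. The gene called was SOT18 (AT1G74090), a sulfotransferase, at -1.03, which was -0.83 without WT replicate 1.

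Of 21 tested flavonoid and anthocyanin genes 7 were higher, 14 were not called, none was lower and the median was 0.41. TT8 (AT4G09820), a bHLH activator of the late genes, stood at 1.76, 2.86 and 1.98 CPM against 0.246 and 0.241 CPM, and its MYB partner PAP1 (AT1G56650) at 2.45, 3.64 and 2.87 CPM against 0.861 and 0.434 CPM. The late enzymes DFR (AT5G42800) and LDOX (AT4G22880) stood at 6.37, 5.57 and 5.43 CPM against 1.23 and 0.723 CPM and at 6.50, 8.64 and 7.15 CPM against 1.41 and 0.530 CPM. UF3GT (AT5G54060), which adds xylose, and GSTF12 (AT5G17220), which carries anthocyanin to the vacuole, rose by 2.64 ± 0.38 and 2.51 ± 0.35. MYBL2 (AT1G71030), a repressor, changed by 1.11 and was at 0.91 without WT replicate 1. The called genes act late in the pathway or control it.

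Of 23 tested iron deficiency genes 9 were higher, 14 were not called and none was lower, with a median of 0.85 and 21 positive. The 4 bHLH factors of subgroup Ib that switch on iron uptake were among them, BHLH101 (AT5G04150) at 56.2, 35.2 and 42.3 CPM against 10.9 and 7.85 CPM, bHLH38 (AT3G56970) at 67.1, 26.3 and 41.5 CPM against 6.46 and 4.24 CPM, and bHLH39 (AT3G56980) and BHLH100 (AT2G41240) with rises of 2.86 ± 0.42 and 2.27 ± 0.36. bHLH38 overlaps its opposite neighbour by 386 bases. IRT1 (AT4G19690), the iron transporter of the root surface, stood at 31.1, 20.9 and 23.4 CPM against 9.41 and 10.6 CPM, and ABCG37 (AT3G53480), which exports coumarins, at 43.3, 40.7 and 40.7 CPM against 18.3 and 20.8 CPM. The remaining rises were those of the peptide genes IMA1 and IMA2, which signal iron need (1.22 and 1.89), and NAS2, a nicotianamine synthase gene (2.15). Of the 9 calls, 4 were lost without WT replicate 2, those of IMA1 (0.83), IMA2 (1.62), NAS2 (2.06) and BHLH100 (1.91), and that of IMA1 also without hot3-2 replicate 1 or 3. The ferritin genes, which store iron, were not called, with FER3 (AT3G56090) at 87.4, 76.4 and 86.3 CPM against 74.9 and 64.9 CPM.

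Class III peroxidases of the cell wall had 21 of 61 tested genes higher (34.4%), 2 lower and a median of 0.73. PRXCB (AT3G49120), which makes hydrogen peroxide in defence, rose from 112 and 122 CPM to 632, 523 and 566 CPM, and AT5G39580 from 11.1 and 10.07 CPM to 79.8, 53.2 and 62.5 CPM. Many iron and peroxidase genes are root genes, and so is NRT2:1. Root markers stood higher in hot3-2 too. All 10 tested members of a list of 11 had a positive change, with 2 called, EXPA7 (AT1G12560) and PRP3 (AT3G62680) of root hairs, and a median of 0.72, and no member was at 0 in all 5 libraries. The summed level of the root markers was 2270 to 2740 CPM in hot3-2 and 1470 and 1610 CPM in WT, most of it from PYK10 (AT3G09260), a root beta-glucosidase, at 2404, 1940.3 and 2157 CPM against 1258 and 1348 CPM. PRP3 was at 0.98 without WT replicate 1, and the adjusted p of EXPA7 rose to 0.024 and 0.060 without either WT library. The part of root content in the iron, peroxidase and nitrate results was not tested.

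Phosphate starvation genes had 1 of 15 higher and 3 lower. PHT1-1 (AT5G43350), a root phosphate transporter, rose from 18.3 and 15.8 CPM to 70.9, 49.2 and 57.6 CPM. MGD2 (AT5G20410), of galactolipid synthesis under low phosphate, fell from 5.54 and 4.82 CPM to 1.89, 1.86 and 1.36 CPM, and SPX1 (AT5G20150) and PAP17 (AT3G17790), a sensor and an acid phosphatase, were at -1.21 and -1.08 but at -0.91 and -0.76 without WT replicate 1. Abscisic acid, drought and cold genes had 3 of 22 higher (13.6%) and 1 lower (4.55%), with a median of 0.24. RD26 (AT4G27410), a NAC factor of drought, rose from 10.4 and 14.8 CPM to 53.5, 47.4 and 50.5 CPM, P5CS1 (AT2G39800), which makes proline, by 1.36 ± 0.13, and COR15A (AT2G42540), a chloroplast cold protein, by 1.15 ± 0.09. The lower member was DREB1A, a cold factor, at -1.93.

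Most called genes of flowering and phase change were lower. Of 16 tested genes 6 were lower and 2 higher, 13 were negative and the median was -0.99. SPL3 (AT2G33810), a target of miR156 that promotes the adult phase, fell from 17.0 and 23.46 CPM to 4.43, 5.79 and 3.81 CPM and overlaps its opposite neighbour by 1046 bases, and SPL5 (AT3G15270) fell from 2.65 and 2.65 CPM to 0.473, 0.214 and 0.470 CPM. AGL8 (AT5G60910), known as FRUITFULL, fell from 9.90 and 6.31 CPM to 1.29, 1.43 and 1.04 CPM. The calls of AP1 and SPL15, both under 2 CPM, were lost under several alternatives. MAF5 (AT5G65080), a repressor of the FLC family, also fell, from 7.197 and 6.98 CPM to 0.989, 0.786 and 0.626 CPM. The 2 higher genes were the repressors RAV2 (AT1G68840, also TEM2), from 28.5 and 39.5 CPM to 189, 225 and 212 CPM, and TEM1 (AT1G25560), from 31.3 and 59.5 CPM to 189.7, 194 and 202 CPM. AGL20 (AT2G45660), also SOC1, was at 37.7, 41.3 and 37.7 CPM against 72.0 and 80.9 CPM, at -0.98 just short of the limit.

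Genes of leaf development had a median of -0.19. Of 16 tested polarity and meristem genes none was higher and 1 was lower (6.25%, against 3.88% of all genes tested). The lower gene was AS1 (AT2G37630), a repressor of meristem genes in leaf primordia, at 41.3, 46.9 and 45.2 CPM against 113 and 86.9 CPM. Its change of -1.17 was -0.97 without WT replicate 1. None of 12 clock genes and none of 9 type-A cytokinin response regulators was called, and lists of this size leave few calls to be seen. TOC1 (AT5G61380), an evening component of the clock, was at 206, 222 and 217 CPM against 183 and 186 CPM. Leaf epidermis and vascular markers had none of 7 called and a median of -0.47, and of the floral organ markers 3 were tested and none was called, at a summed level of 4.86 to 5.94 CPM in hot3-2. The seed storage gene CRA1 was present in every library, at 10.2, 23.3 and 17.2 CPM against 29.0 and 73.5 CPM in WT.

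In cell wall loosening, xyloglucan endotransglucosylases had 6 of 27 higher (22.2%) and 2 lower (7.41%), against 7.80% and 3.88% of all genes tested. XTH28 (AT1G14720) rose from 64.7 and 56.5 CPM to 176, 160.2 and 166 CPM and XTH20 (AT5G48070) by 2.26 ± 0.21, whereas XTH6 (AT5G65730) fell from 62.3 and 126 CPM to 28.6, 27.9 and 26.2 CPM. Expansins had 2 of 23 higher (8.7%) and 3 lower (13.0%). EXPA10 (AT1G26770), of leaf growth, fell from 117 and 80.3 CPM to 25.5, 20.1 and 22.5 CPM. Of 13 tested auxin genes 1 was higher, WES1 (AT4G27260), which conjugates auxin to amino acids, at 67.5, 73.9 and 71.8 CPM against 21.0 and 28.2 CPM, and 1 lower, IAA6, under 2 CPM in every library. The call of IAA6 was lost with the replicate block and without WT replicate 2 or hot3-2 replicate 1 or 3. SAUR genes had 6 of 62 higher (9.68%) and 2 lower (3.23%), near the shares over all genes tested. Their median of -0.11 ran from -0.2 to 0.15 across the alternatives. AT5G50760 was at 38.8, 37.4 and 34.6 CPM against 10.7 and 10.9 CPM.

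Whether hot3-2 differed from the other allele was tested directly, since both alleles share the WT libraries. Between hot3-3 and hot3-2, 178 genes were higher in hot3-3 (0.856% of those tested) and 73 were lower (0.351%). Of the 2428 genes called in hot3-2 against WT, 107 also differed between the alleles. Both comparisons used the same hot3-2 libraries, so genes picked for their change in hot3-2 tend to stand closer to WT in hot3-3. The split by direction is therefore no measure of whether hot3-3 is milder. Of the 107, 63 were higher in hot3-2 than in WT. Of these, 27 were still higher in hot3-3 and 36 were lower in hot3-3. The other 44 were lower in hot3-2, and 41 of them were higher in hot3-3 than in hot3-2. These counts depend on single libraries, since without hot3-2 replicate 3 the direct test gave 31 and 15 genes in place of 178 and 73, without hot3-2 replicate 1 it gave 51 and 20, without hot3-3 replicate 2 it gave 64 and 30, and without hot3-2 replicate 2 it gave 80 and 60. Without hot3-3 replicate 1 it gave 278 and 65, and without WT replicate 1 or 2 it gave 244 in the one direction and 127 or 121 in the other.

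The largest differences were close to all or none. CYP71B29 was at 10.5 and 10.4 CPM in hot3-3, near the level of WT, against 0.215 to 0.417 CPM in hot3-2, a log2 difference of 5.0 (adjusted p = 9.8e-06, edgeR's quasi-likelihood test). AT1G64795 went the other way, at 0.530 and 0.485 CPM in hot3-3 against 22.8 to 23.58 CPM in hot3-2, and AT1G75945 was at 2.21 and 2.34 CPM in hot3-3 against 16.9 to 17.5 CPM. AT1G49570, a peroxidase gene, was at 0.867 and 1.34 CPM in hot3-3, 20.004 to 28.3 CPM in hot3-2 and 6.40 and 5.68 CPM in WT, so that the alleles lay on either side of WT. AT5G24240, a phosphatidylinositol 4-kinase gamma-like gene, was at 39.5 and 37.0 CPM in hot3-3, 2.21 to 3.48 CPM in hot3-2 and 0.615 and 0.530 CPM in WT. CYP71B7 was at 151 and 149 CPM in hot3-3, close to WT, and CYP82G1 (AT3G25180), of homoterpene synthesis, at 19.6 and 19.9 CPM against 4.78 to 4.91 CPM in hot3-2. The calls of these 7 genes held in every alternative in which they were tested.

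The other rule-based differences, AT1G50040 (a DUF1005 gene), AT1G62420 (a DUF506 gene) and the seed genes CRU3 and CRA1 and BGLU19, each lost the call without at least 2 of the single libraries. CRU3 (AT4G28520), a seed storage globulin, was at 73.3 and 133 CPM in hot3-3, 5.59, 11.9 and 8.56 CPM in hot3-2 and 19.6 and 42.4 CPM in WT. HOT3 itself was at 195 and 271 CPM in hot3-3, above hot3-2 by 1.39 (adjusted p = 0.0011), and the call was lost without hot3-2 replicate 3 (adjusted p = 0.012).

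Against shares over all tested genes of 0.856% higher and 0.351% lower in hot3-3, the direct test called 1 of 302 ribosomal protein genes and none of the nucleolar, mitochondrial import, retrograde, nucleotide synthesis and DNA damage genes, and in lists of this size such shares leave few calls to be seen. Their medians against WT in hot3-2 and hot3-3 were 1.13 and 1.2 for ribosomal proteins, 0.77 and 1.04 for nucleolar proteins and 1.46 and 1.70 for the damage genes. Members called were 7 of 21 in the flavonoid list (all higher in hot3-3, with medians of 0.41 and 1.01 against WT), 7 of 61 peroxidases, 4 of 23 iron genes, among them IRT1 at 90.07 and 73.7 CPM in hot3-3, and 3 of 15 jasmonate genes. Other lists held such calls too, among them 10 of 173 cytochromes P450, 7 of 115 UDP-glycosyltransferases, 4 of 56 WRKY genes and 3 of 22 abscisic acid, drought and cold genes. Medians against WT in hot3-2 and hot3-3 were 0.81 and 0.10 for carbon starvation and -0.31 and 0.19 for aliphatic glucosinolate genes. Whether any of these lists differs from others in this was not tested. The jasmonate genes were TAT3, VSP1 and VSP2, and VSP2 was at 36.9 and 41.8 CPM in hot3-3, between hot3-2 and WT. The medians of the jasmonate list were -1.43 in hot3-2 and -0.50 in hot3-3.

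**Figure D5:**
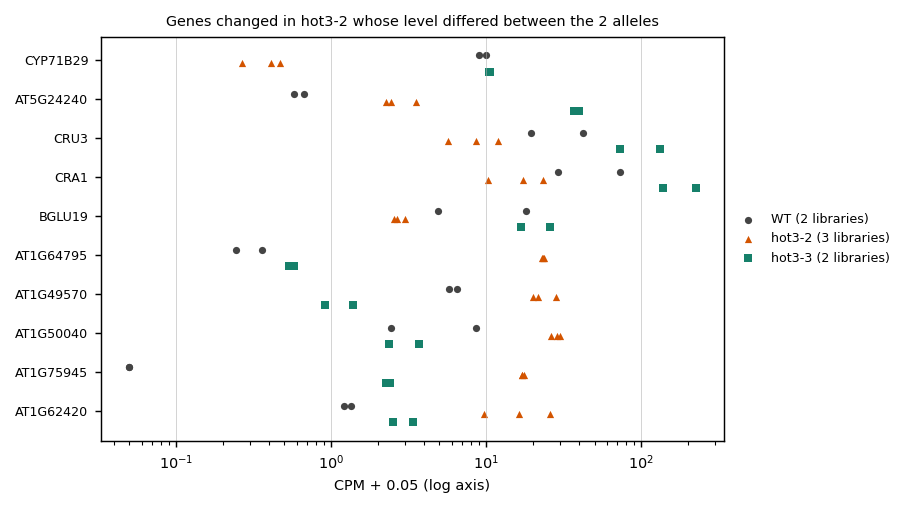
CPM in each WT, hot3-2 and hot3-3 library of the 10 genes with the largest differences between the alleles (5 in each direction), on a log axis after adding 0.05 CPM. CYP71B29 lies at the WT level in hot3-3 and far below it in hot3-2, and AT1G64795 lies near the WT level in hot3-3 and far above it in hot3-2.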

How the data were processed

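RNA sequencing of polyA RNA was analysed from 18-day-old seedlings of WT (2 libraries), hot3-2 (3) and hot3-3 (2), with libraries prepared by a kit that keeps strand. The authors deposited raw read counts per gene, made from uniquely mapped proper pairs. The submitters' processing notes name cutadapt 4.2, STAR 2.7.10b and featureCounts 2.0.3, and the strand setting and annotation release are not given in the sources used here. The depth of 14090881 to 34696683 counts per library sets the counting precision, and CPM here means counts scaled to TMM-adjusted library totals.

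Counts of all 7 libraries entered one edgeR 4.0.16 quasi-likelihood fit (R 4.3.3, limma 3.58.1) with genotype as the only term and filterByExpr (minimum count 10), and p-values were Benjamini-Hochberg adjusted over all 20795 genes tested. The threshold was that of the study. SE is the fold change over the root of F. Alternatives were RLE factors, library size alone, other count filters, DESeq2 1.42.0, fits of the 2 groups compared, other thresholds, the replicate number as a block, single libraries left out, and a promoter window without the 50 bases after the start.

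Of 27655 loci 27445 matched RefSeq's TAIR10.1 annotation, which gave names, products, overlaps and 27443 promoters. Lists came from locus lists and product words. The members and lists were chosen with earlier results of these data known. Genes were named by rule: the 12 largest called changes in each direction with a mean of at least 5 CPM and no overlap, the eIF5B genes, the 4 smallest p-values of each list, and, of genes called both against WT and between the alleles, the 5 largest differences between the alleles in each direction under the same minimum. Other genes named were chosen after their values were seen. Lists are described by counts and medians without a test of the list.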

Additional observations from a re-analysis of the deposited data

Results flagged for a closer look

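Given here as values, without an explanation, are 25 genes that differed between hot3-3 and hot3-2 by the direct test. The test was edgeR's quasi-likelihood test, at adjusted p under 0.01 and at least 1 on the log2 scale. The list does not hold every such gene named in the report, and TAT3 is left out. Higher in hot3-3 were CYP71B29 by 5.0, AT5G24240 by 3.79, CRU3 by 3.61, CRA1 by 3.45, BGLU19 by 3.01, VSP1 by 2.26, CYP82G1 by 2.03, DFR by 1.72, IRT1 by 1.69, TT8 by 1.56, HOT3 by 1.39, VSP2 by 1.18, AT2G18150, a peroxidase gene, by 1.13, AT2G18190 by 1.11, AT1G30170 by 1.05 and WRKY53 by 1.04 on the log2 scale. Lower in hot3-3 were AT1G64795 at -5.51, AT1G49570 at -4.34, AT1G50040 at -3.19, AT1G75945 at -2.90, AT1G62420 at -2.56, CYP71B7 at -1.09, AT5G39580 at -1.07, PHT1-1 at -1.06 and AGL20 at -1.03. Of these 25 genes, CYP71B29, CYP71B7, AT1G49570, AT1G64795, AT1G75945, AT2G18150, AT2G18190, CYP82G1, IRT1 and AT5G24240 kept the call in every alternative in which they were tested.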

How the results depend on the processing

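In hot3-2 against WT the counts of called genes stayed within 1.5 times of the main counts under every alternative except that without the fold limit, which gave 3909 higher and 3119 lower. Leaving out single libraries gave 1365 to 1713 higher and 682 to 851 lower. Similar counts did not mean the same genes. Without hot3-2 replicate 1, 1348 of the 1621 higher calls and 655 of the 807 lower calls were kept. With the replicate block 1484 and 657 were kept. Leaving out either WT library lost more calls than leaving out any hot3-2 library. No called gene reversed its sign in any alternative. The direct test of the alleles moved more. For genes higher in hot3-3 (178) it gave 279 without a count filter, 96 with the replicate block, 417 at adjusted p under 0.05, 287 without the fold limit and 31 to 278 without single libraries. For genes lower in hot3-3 (73) it gave 128 without a count filter, 122 by DESeq2, 121 from the 2 groups alone, 177 at adjusted p under 0.05, 181 without the fold limit and 15 to 127 without single libraries. Replicate numbers do not pair WT and hot3-2, whose same-numbered libraries deviate together at r = 0.0339 and 0.0332. Between hot3-2 and hot3-3 r was 0.158 and 0.134, over 2 shared numbers only, too few to count as pairs. With the replicate block hot3-2 had 1571 higher and 700 lower genes. Of 256 genes followed, 207 stayed on the same side of the threshold in every alternative and 49 did not. Without single libraries eIF5B2 ran from -0.45 to 0.01, with the reversal to 0.01 without hot3-2 replicate 1. The cause of these changes was not tested.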

Other observations

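Several of the steepest rises were those of a minor copy beside a lead copy that rose less, a set of 6 pairs chosen after their values were seen. Levels are CPM per kb of exon, and the minor copy's share is of the sum of both. For threonyl-tRNA synthetase AT1G17960 went from 2.7% in WT to 32.5% in hot3-2 beside AT5G26830, which rose by 0.79 on the log2 scale. TIM17-1 rose by 4.57 beside TIM17-2 (0.55), and the porin family gene AT1G50400 went from 0.524% to 4.26% beside TOM40 (0.84). NUC-L2 went from 0.520% to 3.41% beside NUC-L1 (1.5), TIF3C2 from 0.171% to 2.34% beside EIF3C (0.96), and AT3G09680 from 0.149% to 1.54% beside AT5G02960 (1.46). In all 6 pairs the lead copy remained the more abundant.

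Called genes also lay next to each other. Of 1621 higher genes 424 (26.2%) had an adjacent tested gene that was also higher, against 15.0% of all tested genes, and of 802 lower nuclear genes 126 had a lower neighbour, against 7.57% of all tested genes. Neighbours include tandem copies and overlapping genes, whose part was not tested.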
